A study of Mus musculus with 2 samples.

Results

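Class 3 semaphorins are a family of 7 secreted guidance proteins (Sema3a to Sema3g), and plexin D1 (Plxnd1) is a cell-surface receptor to which 1 of them, Sema3e, binds directly. These 8 genes were chosen by symbol from the 32285 genes counted in single cells of aged mouse hindlimb muscle, and their raw unique molecular identifiers (UMIs, 1 per captured mRNA molecule) were summed in each cell type. The data came from quadriceps and gastrocnemius muscles of female C57Bl/6J mice aged 24 months. One group received 3 intramuscular injections over a week of all-trans retinoic acid (ATRA) with CD3254, an agonist of the retinoid X receptor alpha, and BMS961, an agonist of the retinoic acid receptor gamma (ATRA+agonist), and the other received the DMSO vehicle on the same schedule. Muscles were digested to single cells and sorted with propidium iodide, and the cells of 2 mice were pooled into 1 library per group, so no spread between animals or libraries can be had and no difference below has a replicate check. Digestion leaves few multinucleated fibers intact, and fiber-like cells (229 in ATRA+agonist and 0 in vehicle) were outside the comparisons.

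Secreted class 3 semaphorins repel or attract growing axons, migrating cells and vessel sprouts. Most of them bind neuropilins, which have no signaling domain of their own and which form a receptor complex with class A plexins. Sema3a prefers neuropilin 1 and Sema3f prefers neuropilin 2, whereas Sema3e can act on plexin D1, a receptor known from vessel patterning, without a neuropilin. Furin-type convertases cut the ligands and alter their activity. In muscle, Sema3a made by muscle stem cells is known for its part in the innervation of regenerating fibers.

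In the gene annotation (GENCODE for GRCm38), 4 of the ligand genes lay on chromosome 5, all on the plus strand. They were Sema3d (ENSMUSG00000040254, chr5:12383385-12588948), Sema3a (ENSMUSG00000028883, chr5:13125414-13602565), Sema3e (ENSMUSG00000063531, chr5:14025276-14256689) and Sema3c (ENSMUSG00000028780, chr5:17574281-17730268). Sema3b (ENSMUSG00000057969, chr9:107597674-107609229) and Sema3f (ENSMUSG00000034684, chr9:107681500-107710475) lay on the minus strand of chromosome 9. Sema3g (ENSMUSG00000021904, chr14:31217860-31230352) lay on the plus strand of chromosome 14, and Plxnd1 (ENSMUSG00000030123, chr6:115954811-115995005) on the minus strand of chromosome 6. All 8 were annotated as protein coding. Other gene models overlapped Sema3a (3 on its strand and 1 antisense), Sema3d (1 and 1) and Sema3e (2 and 1). Whether the reference used for counting held these models was not tested, so any sharing of reads with them is not known.

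Retinoid receptors bind DNA at pairs of the hexamer AGGTCA or close relatives of it, which is why the promoters were searched for it. RefSeq (GRCm38.p6) gave a window from 250 bases before to 50 bases after the start for 6 of the 8 genes. Shown here are 3 of them, that of the receptor and those of the 2 ligands with the most UMIs behind a ratio between the libraries that passed the fold rule given below, all 5′ to 3′ on the strand of the gene. Capitals mark the hexamer, which is TGACCT when it is read on the opposite strand. The windows were chr6:115994956-115995255 (minus strand) for Plxnd1, chr5:13396534-13396833 (plus strand, inside the longer GENCODE model of the gene) for Sema3a and chr14:31217623-31217922 (plus strand) for Sema3g.
Plxnd1: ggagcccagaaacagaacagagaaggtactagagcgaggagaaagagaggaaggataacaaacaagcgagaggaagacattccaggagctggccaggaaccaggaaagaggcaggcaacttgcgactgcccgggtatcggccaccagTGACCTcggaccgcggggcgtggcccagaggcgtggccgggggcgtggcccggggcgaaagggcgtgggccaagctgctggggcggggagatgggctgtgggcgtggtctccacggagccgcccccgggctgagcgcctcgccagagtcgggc
Sema3a: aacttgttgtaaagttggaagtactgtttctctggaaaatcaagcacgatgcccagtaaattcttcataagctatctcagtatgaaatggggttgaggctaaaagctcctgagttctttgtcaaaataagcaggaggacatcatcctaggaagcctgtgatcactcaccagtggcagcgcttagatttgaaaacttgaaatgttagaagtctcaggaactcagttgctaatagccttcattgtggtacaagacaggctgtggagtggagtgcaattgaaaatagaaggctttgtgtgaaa
Sema3g: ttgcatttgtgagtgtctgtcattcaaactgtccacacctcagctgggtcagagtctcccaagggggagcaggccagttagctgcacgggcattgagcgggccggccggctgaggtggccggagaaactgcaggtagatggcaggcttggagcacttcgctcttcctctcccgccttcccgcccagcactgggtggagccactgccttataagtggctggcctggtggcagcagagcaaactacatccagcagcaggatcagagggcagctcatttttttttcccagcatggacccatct

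Plxnd1 held 1 copy of AGGTCA, on the strand opposite to the gene, 103 bases before the start. No window of the other 5 genes (Sema3a, Sema3c, Sema3d, Sema3e and Sema3g) held AGGTCA or AGTTCA on either strand. Other relatives of the hexamer were not searched for or marked. GGGTCA, which differs from it by a single base, occurs in the Sema3e and Sema3g windows, so these counts do not cover all possible half-sites. For scale, 16.3% of 32851 RefSeq windows of the same length held AGGTCA on either strand, 14.0% held AGTTCA and 27.7% held at least 1 of them. A direct repeat of AGGTCA with 1 base of any kind between the copies was in 0.0396% of the windows and in none of the 6, and repeats with 2 or with 5 bases between the copies were each in 0.00913% and in none of the 6. The GC content of the 3 windows was 67.0% for Plxnd1, 41.3% for Sema3a and 58.7% for Sema3g, against a median of 52.7% over all windows. A match is a string of letters and not a bound site.

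The ATRA+agonist library kept 6907 of 10444 barcodes and the vehicle library 6953 of 17394, with a median of 4694 and 4842 UMIs per cell. Of 24 clusters, 21 were named from marker genes, and 11 cell classes had at least 50 cells in each library and were compared; in each of them at least 6 markers, and no fewer than all but 1 of those listed, were over 2-fold above the other cells. The mast cell-like cluster was led by Cma1 and Mcpt4 but also had Elane, Mpo and the listed dendritic marker Xcr1 among its leading genes. It may therefore be mixed, and the part of this in its ratios was not tested. The endothelial-like cells of the libraries were spread differently over their clusters. Cluster 1 held 1580 of 1922 ATRA+agonist and 729 of 2123 vehicle cells, and a cluster led by interferon-response genes (cluster 3) held 77 and 1019. Among kept cells 9 barcodes occurred in both libraries. Levels are given in CPM, the UMIs of a gene per 1000000 UMIs of the class, with an exact Poisson 95% interval in square brackets. Intervals here cover counting error only, in 1 library each.

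The 7 ligands had 4 leading cell classes. Sema3a was highest in tenocyte-like cells, Sema3c in fibro-adipogenic progenitor-like (FAP-like) cells, Sema3b, Sema3d and Sema3e in Schwann-like cells, and Sema3f and Sema3g in endothelial-like cells. For each ligand the interval of the leading class lay above that of the next class, ranked by the mean of both libraries, in the ATRA+agonist library and in the vehicle library. B, T or NK, mast and monocyte or macrophage-like cells had at most 2.68 CPM of any ligand. Monocyte or macrophage-like cells, among the deepest cells (median 10871 UMIs in ATRA+agonist and 9565 in vehicle), held at most 5 UMIs of any of the ligands and had a UMI of one in at most 0.743% of cells, which gives the background for the shares of cells below. Barcodes under 300 genes (2428 in ATRA+agonist and 7940 in vehicle) carried each of the 8 genes at 0.523 CPM or less. They held 15285433 and 52901998 UMIs, and what RNA filled them was not tested, so this is no measure of free RNA.

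**Figure D1:**
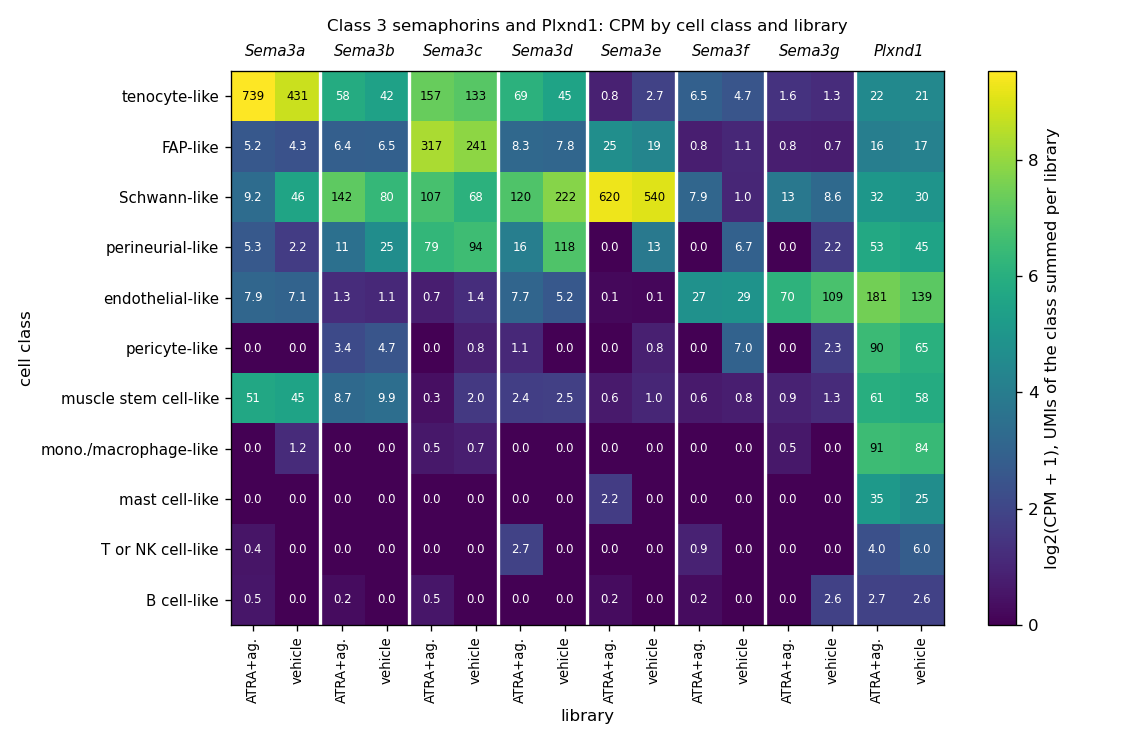
Heat map of the level of each gene (columns, in pairs for ATRA+agonist and vehicle) in the 11 compared cell classes (rows), colored by log2(CPM + 1) with the CPM printed in each cell. The brightest cells are Sema3a in tenocyte-like cells (739 and 431 CPM) and Sema3e in Schwann-like cells (620 and 540 CPM), and immune rows are dark for all ligands while Plxnd1 is spread over many rows.

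Sema3a, a repellent of growing axons, was read mainly from tenocyte-like cells, the fibroblasts of tendon and fascia. Its level there was 739 CPM [691 to 788] in the ATRA+agonist library and 431 CPM [408 to 455] in the vehicle library, from 907 and 1293 UMIs. These cells held 74.7% and 76.5% of all Sema3a UMIs of their library. A Sema3a UMI was found in 56.5% of the 161 ATRA+agonist cells and in 45.6% of the vehicle cells, at a median depth of 7149 and 5231 UMIs per cell, and in 35.4% and 24.9% once each cell was thinned to 1000 UMIs. No other class came near this level, and muscle stem cell-like cells were next.

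Within the tenocyte-like cells Sema3a was concentrated in 1 of 3 sub-clusters, led by Igfbp3 and Igfbp5, which encode binding proteins of insulin-like growth factors. In that sub-cluster the level was 1205 CPM [1123 to 1291] in 79 ATRA+agonist cells and 889 CPM [832 to 950] in 157 vehicle cells. A sub-cluster led by Itih5 had 225 CPM [181 to 276] and 276 CPM [248 to 305], and one led by Spp1 and Col22a1 had 84.9 CPM [45.2 to 145] and 59.9 CPM [42.8 to 81.6]. The order of the 3 was thus the same in both libraries, with only the first higher in ATRA+agonist beyond counting error. Sema3b (69.1 and 62.3 CPM), Sema3c (255 and 284 CPM), Sema3d (105 and 96.5 CPM) and Sema3f (10.5 and 8.04 CPM, from 7 and 8 UMIs) also had their highest tenocyte-like level in the first sub-cluster in both libraries.

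In muscle stem cell-like cells, the Sema3a level was 51.5 CPM [44.1 to 59.8] in ATRA+agonist and 45.0 CPM [38.6 to 52.1] in vehicle. It was not evenly spread. A sub-cluster led by Myog and Ttn, genes of differentiating muscle cells, had 157 CPM [130 to 187] and 124 CPM [104 to 148], against 18.4 CPM [13.2 to 25.1] and 15.8 CPM [11.3 to 21.5] in the largest sub-cluster. The smaller of these groups therefore held 122 of the 172 Sema3a UMIs of the class in ATRA+agonist and 129 of 178 in vehicle. Lymphatic endothelial-like cells, named from Lyve1, Prox1 and other markers, were few (23 and 11 cells) and had 308 CPM [224 to 412] and 417 CPM [270 to 616]. They held 45 of the 54 and 25 of the 57 Sema3a UMIs found in endothelial-like cells.

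Sema3b, a ligand of neuropilin complexes, was highest in Schwann-like cells, the glia of peripheral nerve. Its level was 142 CPM [117 to 172] in ATRA+agonist and 80.1 CPM [68.1 to 93.6] in vehicle. The myelinating sub-cluster, in which 6 of 7 listed markers were enriched, had 256 CPM [199 to 324] and 134 CPM [103 to 172], whereas the sub-cluster led by Lyz2 and Lsamp had 40.3 CPM [20.8 to 70.5] and 36.4 CPM [25.8 to 49.95]. The other sub-clusters, led by Gfra3 and by Igfbp5 and Tnc, had 130 CPM [72.8 to 215] and 142 CPM [102 to 193], and 159 CPM [82.4 to 278] and 95.3 CPM [55.5 to 153]. Their intervals overlapped that of the myelinating cells in both libraries, so the myelinating cells did not stand apart from them in either. Tenocyte-like cells came next with 57.8 CPM [45.2 to 72.9] and 42.4 CPM [35.3 to 50.4]. Levels in FAP-like cells (6.44 and 6.54 CPM) and muscle stem cell-like cells (8.68 and 9.86 CPM) were within counting error of each other between the libraries.

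Sema3c, which is known for roles in heart and vessel development, had the most UMIs of the ligands (4632 in ATRA+agonist and 3861 in vehicle), and 90.3% and 82.0% of them were in FAP-like cells, the interstitial fibroblasts of muscle. Its level in these cells was 317 CPM [308 to 327] and 241 CPM [232 to 249], with a UMI in 42.0% of 1295 cells and 34.3% of 1578 cells, at a median depth of 9902 and 8025 UMIs. A sub-cluster named by the marker Pi16, a gene of fibroblasts in the vessel adventitia, had 1147 CPM [1109 to 1187] and 947 CPM [909 to 985]. Sema3c was found in 93.7% and 89.4% of its cells, and it held 71.0% and 62.5% of the Sema3c UMIs of the library. By contrast, the Gdf10 sub-cluster had 88.0 CPM [77.4 to 99.6] and 71.3 CPM [62.8 to 80.6], and the larger Cxcl14 sub-cluster had 49.2 CPM [43.7 to 55.2] and 53.2 CPM [47.3 to 59.7]. The Pi16 sub-cluster had all 7 of its listed markers enriched, though Pi16 and Cd248 were not among its leading genes. Another sub-cluster, which stayed unnamed, did have both among its leading genes, and its Sema3c level was 323 CPM [290 to 358] and 285 CPM [247 to 328]. The Pi16 sub-cluster thus stood above these in both libraries.

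Sema3d, a guidance cue of neural crest and vein development, was highest in Schwann-like cells with 120 CPM [96.6 to 147] in ATRA+agonist and 222 CPM [202 to 244] in vehicle. The Lyz2-led sub-cluster had 259 CPM [204 to 324] and 381 CPM [345 to 421], the Gfra3-led one 113 CPM [60.0 to 193] and 132 CPM [93.5 to 181], and the myelinating one 1 and 3 UMIs. In perineurial-like cells, the sheath of the nerve fascicle, the level was 15.8 CPM [3.25 to 46.1] from 3 UMIs in ATRA+agonist and 118 CPM [88.8 to 155] from 53 UMIs in vehicle. In endothelial-like cells it was a lymphatic signal, with 51 of 52 and 42 of 42 UMIs in the lymphatic sub-cluster, at 349 CPM [260 to 458] and 701 CPM [505 to 947]. The 5 richest endothelial-like cells held 57.7% and 90.5% of these UMIs, and 1 vehicle cell held 20 of the 42. Such clumping in single cells is not covered by the intervals.

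Sema3e, the plexin D1 ligand, had 620 CPM [565 to 679] in ATRA+agonist Schwann-like cells and 540 CPM [508 to 574] in vehicle ones. A UMI was found in 80.7% and 71.1% of these cells, at a median depth of 5362 and 4633 UMIs. All 4 Schwann-like sub-clusters expressed it, from 420 to 532 CPM in 3 of them in vehicle and 841 CPM [712 to 987] in the smallest, which was led by Igfbp5, Tnc and Gap43 and which had 1248 CPM [1009 to 1528] in ATRA+agonist. The Pi16 sub-cluster of FAP-like cells was a smaller source, with 104 CPM [92.8 to 117] and 87.5 CPM [76.4 to 99.8], and held 299 of the 329 and 223 of the 252 FAP-like Sema3e UMIs. Elsewhere Sema3e was at most 13.4 CPM in any compared class.

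Sema3f, which prefers neuropilin 2, was the least abundant ligand by UMIs (229 and 284). Endothelial-like cells held 80.8% and 80.6% of them, at 27.2 CPM [23.4 to 31.5] and 28.6 CPM [25.0 to 32.5]. In the arterial sub-cluster the level was 60.9 CPM [39.8 to 89.2] and 61.2 CPM [44.1 to 82.7], and in a sub-cluster led by Apln it was 16.6 CPM [12.5 to 21.5] and 29.6 CPM [22.2 to 38.6]. The highest levels were in 2 small sub-clusters, with 178 CPM [116 to 260] and 133 CPM [57.6 to 263] in the lymphatic one and 136 CPM [67.7 to 243] and 90.01 CPM [62.3 to 126] in the venous one.

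Sema3g, an arterial semaphorin, was nearly confined to endothelial-like cells, which held 87.8% and 90.8% of its UMIs in the library. Its level was 69.9 CPM [63.8 to 76.5] in ATRA+agonist and 109 CPM [102 to 116] in vehicle. The arterial sub-cluster, named from 7 of 9 arterial markers, had 485 CPM [421 to 556] in 77 cells and 547 CPM [494 to 606] in 117 cells, with a UMI in 85.7% and 85.5% of cells. The intervals of the arterial cells overlapped between the libraries, while the sub-cluster led by Apln had 37.8 CPM [31.6 to 45.0] and 61.3 CPM [50.5 to 73.8]. The sub-cluster led by the interferon-response genes Ubd and Gbp2 had 80.7 CPM [71.9 to 90.2] in 1012 vehicle cells and 23.9 CPM [4.93 to 69.8], from 3 UMIs, in 32 ATRA+agonist cells.

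**Figure D2:**
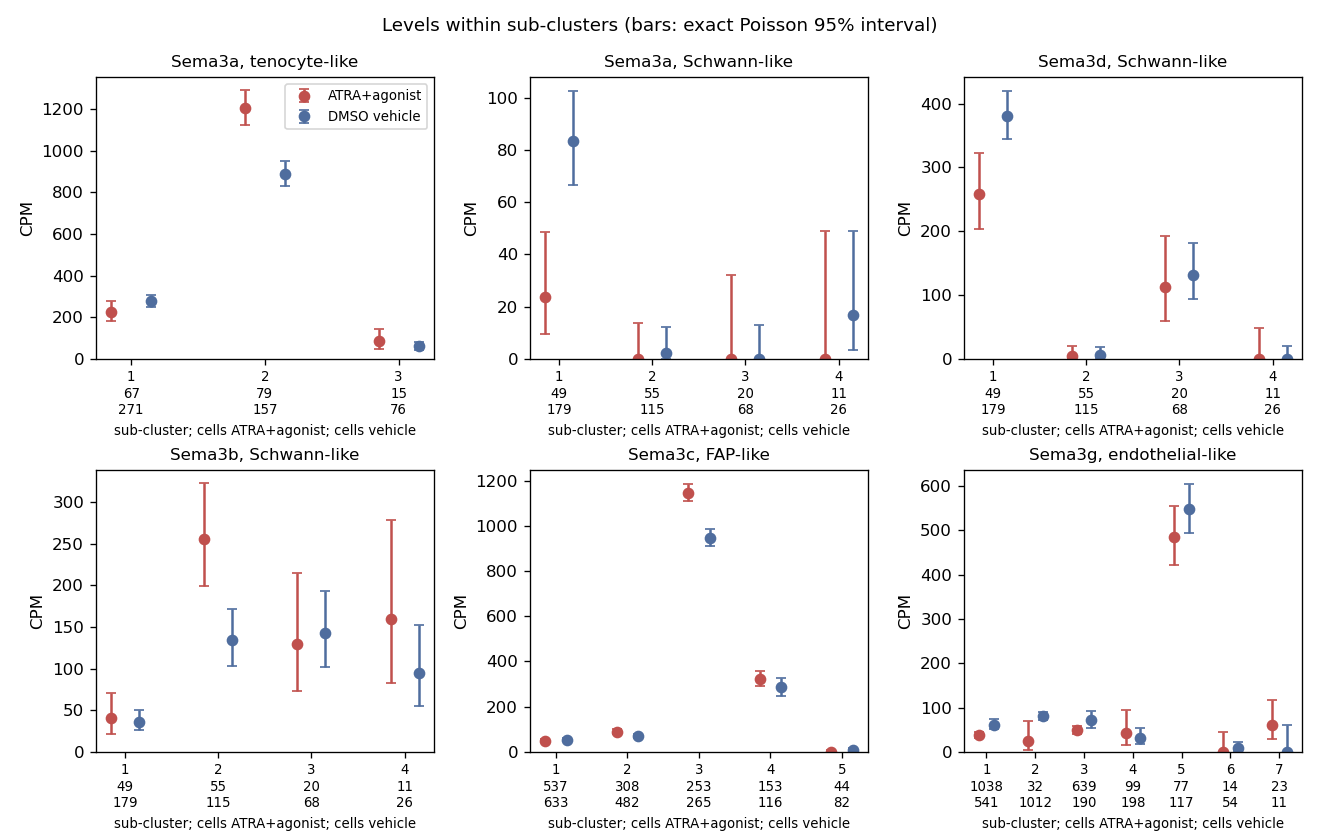
Level in CPM (vertical axes, each from 0) of Sema3a, Sema3b, Sema3c, Sema3d and Sema3g in the sub-clusters of their classes (horizontal axes, numbered, with the cells of each library written beneath), ATRA+agonist in red and vehicle in blue, with exact Poisson 95% intervals. Sub-cluster 2 of tenocyte-like cells, 3 (Pi16) of FAP-like cells and 5 (arterial) of endothelial-like cells stand above the rest in both libraries, at 1205 and 889 CPM, 1147 and 947 CPM, and 485 and 547 CPM.

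Plxnd1, the receptor, was the most widely expressed of the 8 genes. Endothelial-like cells were highest with 181 CPM [171 to 192] in ATRA+agonist and 139 CPM [131 to 147] in vehicle, and they held 48.8% and 49.2% of its UMIs. A UMI was found in 41.9% and 34.9% of them, at a median depth of 3279 and 3481 UMIs, and in 15.7% and 12.4% after thinning to 1000 UMIs. For comparison, 1.72% and 1.49% of B cell-like cells had a Plxnd1 UMI at a median depth of 5364 and 4444.

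Other classes followed at lower Plxnd1 levels. Monocyte or macrophage-like cells had 91.2 CPM [83.7 to 99.3] and 84.0 CPM [75.3 to 93.5], pericyte-like cells 89.7 CPM [71.1 to 112] and 65.2 CPM [52.0 to 80.7], and muscle stem cell-like cells 61.3 CPM [53.2 to 70.3] and 57.9 CPM [50.6 to 65.9]. In that order the intervals of neighbors overlapped in at least 1 library. Schwann-like, tenocyte-like and FAP-like cells, the main sources of the ligands Sema3a, Sema3c and Sema3e, had 15.9 to 31.7 CPM of the receptor. The Pi16 sub-cluster of FAP-like cells had 4.54 and 2.35 CPM of Plxnd1, the lowest of the FAP-like sub-clusters, beside the highest Sema3c and Sema3e of that class.

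Endothelial-like sub-clusters differed in Plxnd1 as well. The Apln-led sub-cluster had 218 CPM [202 to 234] and 201 CPM [181 to 223], the sub-cluster led by Bin3 and Kirrel3 159 CPM [144 to 176] and 162 CPM [136 to 192], and the arterial one 86.7 CPM [61.0 to 120] and 69.9 CPM [51.5 to 92.7]. Arterial cells therefore combined the highest Sema3g with a low Plxnd1 level. The interferon-led sub-cluster had 127 CPM [116 to 138] in 1012 vehicle cells and 223 CPM [148 to 322] in 32 ATRA+agonist cells.

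Between the libraries, each gene was compared in each class where it had at least 20 UMIs in the 2 libraries together. A pair of gene and class was called when the CPM ratio was at least 1.5-fold and its counting interval left out 1. Of 34 pairs, 4 (11.8%) were called higher and 4 (11.8%) lower in ATRA+agonist, and the median log2 ratio was 0.20. Over all genes in the 11 classes, 5.14% of pairs were called higher and 6.54% lower, so the share of the members exceeded this background in each direction, on 4 pairs each. The members were chosen with earlier results of these data known, so this excess is not an independent result. With the mix of sub-clusters set equal between the libraries, 2 of the 7 called pairs with such a value stayed past 1.5-fold. For 21 pairs the interval held a ratio of 1, and for 5 it did not but the fold was under 1.5. The perineurial-like class, where 9.42% of all genes were called higher and 25.4% lower, held 3 of the 34 pairs, and without it the members gave 4 higher and 3 lower of 31.

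**Figure D3:**
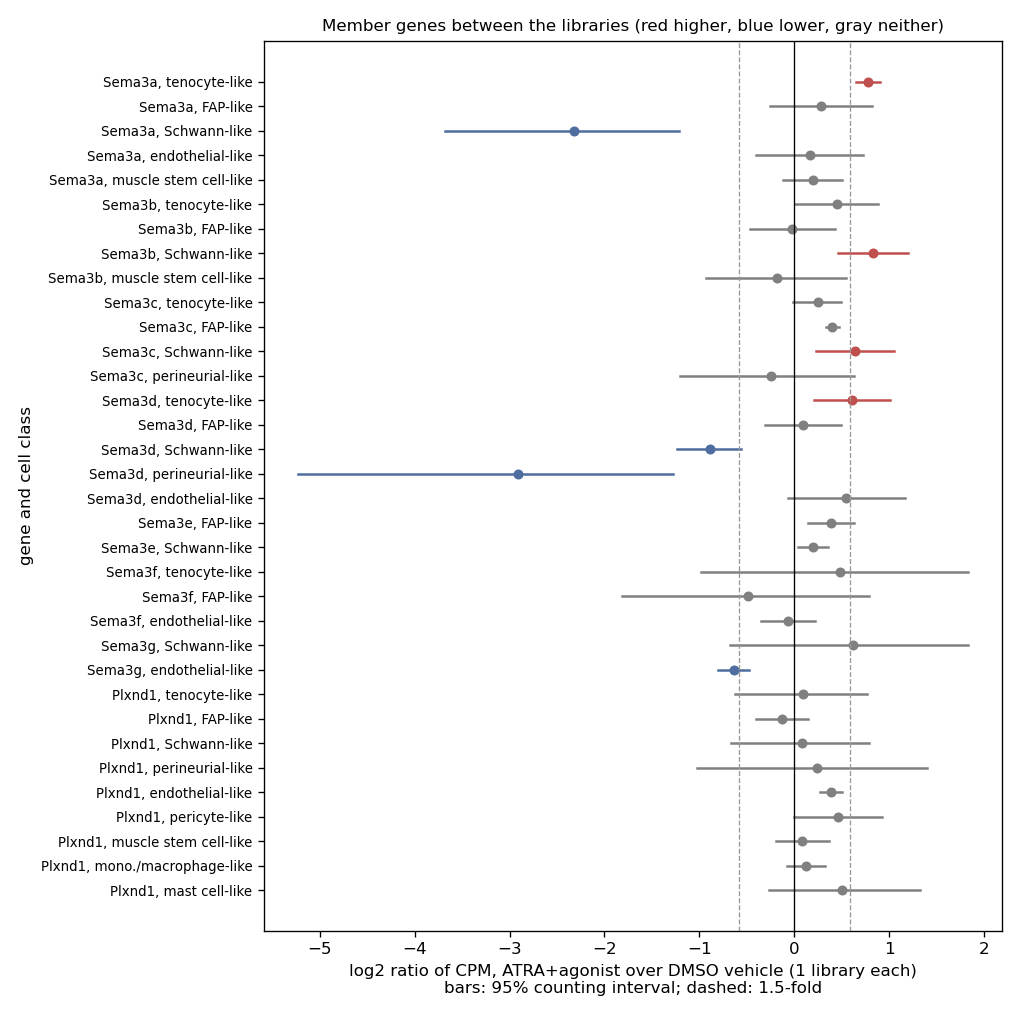
Log2 ratio of CPM, ATRA+agonist over vehicle (horizontal axis), for the 34 pairs of gene and cell class (rows), with 95% counting intervals as bars and 1.5-fold as dashed lines. Red marks the 4 pairs called higher (Sema3a and Sema3d in tenocyte-like, Sema3b and Sema3c in Schwann-like cells), blue the 4 called lower (Sema3a and Sema3d in Schwann-like, Sema3d in perineurial-like and Sema3g in endothelial-like cells), and gray the rest.

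In tenocyte-like cells, 2 of 6 members were called higher, against 4.17% of all genes, and none lower, against 6.61%. The members called were Sema3a, with a log2 ratio of 0.78 (0.65 to 0.90, 1.71-fold), and Sema3d, with 0.61 (0.20 to 1.01, 1.53-fold) from 69.2 CPM [55.3 to 85.6] and 45.4 CPM [38.1 to 53.7]. Sema3b was at 0.45 (0.01 to 0.88) and Sema3c at 0.24 (-0.01 to 0.50). The Igfbp3 sub-cluster, where Sema3a was highest, held 54.2% of the UMIs of the class in ATRA+agonist and 33.2% in vehicle. With the mix of sub-clusters set equal, the log2 ratio of Sema3a was 0.30 and that of Sema3d 0.18, both under 1.5-fold. Within the Igfbp3 sub-cluster itself the Sema3a log2 ratio was 0.44 (0.30 to 0.58), and in the Itih5 sub-cluster -0.29 (-0.64 to 0.04). The 5 richest cells held 22.9% of the Sema3a UMIs of the class in ATRA+agonist and 12.9% in vehicle, and without them the log2 ratio was 0.65. In the same cells the summed markers of tenocytes stood at 18945 CPM in ATRA+agonist and 17240 CPM in vehicle, those of FAPs at 29256 and 20483 CPM, and those of Schwann cells at 331 and 236 CPM, and their part in these ratios was not tested.

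In Schwann-like cells 2 of 7 members were called higher (4.27% of all genes were) and 2 lower (5.54% were). Sema3b had a log2 ratio of 0.83 (0.46 to 1.19, 1.78-fold) and Sema3c, at 107 CPM [84.8 to 133] and 68.4 CPM [57.4 to 81.0], a log2 ratio of 0.64 (0.23 to 1.05, 1.56-fold). In the myelinating sub-cluster, which made up 35.6% of the UMIs of the class in ATRA+agonist and 23.5% in vehicle, the log2 ratio of Sema3b was 0.93 (0.42 to 1.45) and that of Sema3c 1.41 (0.55 to 2.30). In the Lyz2-led sub-cluster the ratios were 0.15 (-0.92 to 1.12) and -0.27 (-1.10 to 0.49), and in the Gfra3-led one -0.13 (-1.09 to 0.75) and 1.06 (0.33 to 1.79). With an equal mix of sub-clusters Sema3b stood at 0.55 and Sema3c at 0.59 for the class. Sema3e, the most abundant member in these cells, had a log2 ratio of 0.20 (0.04 to 0.36).

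In contrast, 7 Sema3a UMIs in Schwann-like cells of the ATRA+agonist library gave 9.23 CPM [3.71 to 19.0], and 91 in vehicle gave 46.1 CPM [37.1 to 56.6], for a log2 ratio of -2.32 (-3.68 to -1.22). Nearly all of it lay in the Lyz2-led sub-cluster, with 23.5 CPM [9.46 to 48.5] and 83.3 CPM [66.7 to 103]. Tenocyte markers were higher in the same vehicle cells. The summed 8 markers had 217 UMIs (110 CPM, 1 marker at 0) in vehicle and 6 UMIs (7.91 CPM, 5 markers at 0) in ATRA+agonist. Of the 48 Sema3a-positive vehicle cells 46 had no UMI of a tenocyte marker, and the Schwann-like cells held 419 Sema3a UMIs per 1000 UMIs of tenocyte markers, where vehicle tenocyte-like cells held 25.0. The part of tenocyte RNA in the Sema3a ratio was not tested. With no doublet removal the log2 ratio was -0.68.

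Sema3d was also lower in Schwann-like cells, with a log2 ratio of -0.89 (-1.23 to -0.56). Its main sub-cluster held 39.2% of the UMIs of the class in ATRA+agonist and 52.9% in vehicle, and the ratio within it was -0.56 (-0.93 to -0.20). With the mix set equal the class stood at -0.53, under the 1.5-fold limit, and with each cell thinned to 1000 UMIs at -0.14. In perineurial-like cells the log2 ratio of Sema3d was -2.91 (-5.23 to -1.28) from 3 and 53 UMIs. There the median of all genes was itself at -0.35, and the median depth was 1313 against 2048 UMIs. The summed perineurial markers stood at 1089 CPM in ATRA+agonist against 5252 CPM in vehicle, and adipocyte markers at 537 against 17.9 CPM. FAP markers stood at 31406 against 21867 CPM, where FAP-like cells had 39498 and 34624 CPM, so the perineurial name is uncertain, above all in ATRA+agonist. The part of these differences in the Sema3d ratio was not tested.

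In endothelial-like cells 1 of 5 members was called lower, where 3.78% of all genes were, and none higher, where 5.87% were. Sema3g had a log2 ratio of -0.64 (-0.80 to -0.47, a fold of 0.643), with a UMI in 13.3% of ATRA+agonist cells and 20.4% of vehicle cells, or 5.25% and 7.86% after thinning. The ratio was -0.70 (-1.07 to -0.32) in the Apln-led sub-cluster, -0.55 (-1.01 to -0.07) in the Bin3-led one and -0.18 (-0.43 to 0.07) in the arterial one. With an equal mix of sub-clusters the class stood at -0.55, just under 1.5-fold. An unnamed cluster of shallow cells in which all 9 endothelial markers were enriched (cluster 4, median 768 and 900 UMIs) gave 60.4 CPM [42.3 to 83.6] and 113 CPM [82.6 to 150] for Sema3g.

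The Plxnd1 ratio in endothelial-like cells was in the other direction but under 1.5-fold, at 0.39 on the log2 scale (0.27 to 0.51, 1.31-fold). Its interval held 0 in the Apln-led sub-cluster (0.12, -0.07 to 0.30) and in the Bin3-led one (-0.03, -0.31 to 0.26), and it left out 0 in the interferon-led one (0.82, 0.21 to 1.37), which had 32 ATRA+agonist cells. No Plxnd1 ratio passed the fold rule in any of the 9 classes where it was compared. Over all genes, 2.89% were called higher and 3.79% lower in monocyte or macrophage-like cells, 5.52% and 3.62% in muscle stem cell-like cells, 4.85% and 5.98% in pericyte-like cells, and 7.72% and 5.07% in mast cell-like cells. The interval held 0 in monocyte or macrophage-like (0.12, -0.08 to 0.32), muscle stem cell-like (0.08, -0.19 to 0.36) and FAP-like cells (-0.13, -0.41 to 0.15). Sema3f in endothelial-like cells was at -0.07 (-0.36 to 0.22), and Sema3a in muscle stem cell-like cells at 0.19 (-0.12 to 0.50).

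FAP-like cells gave no call among 7 members, where 3.01% of all genes were called higher and 6.31% lower. The log2 ratio of Sema3c was 0.40 (0.33 to 0.47, 1.32-fold) and that of Sema3e 0.38 (0.14 to 0.62, 1.30-fold). In the Pi16 sub-cluster, which held 21.7% and 19.4% of the UMIs of the class, the Sema3c log2 ratio was 0.28 (0.20 to 0.35).

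**Figure D4:**
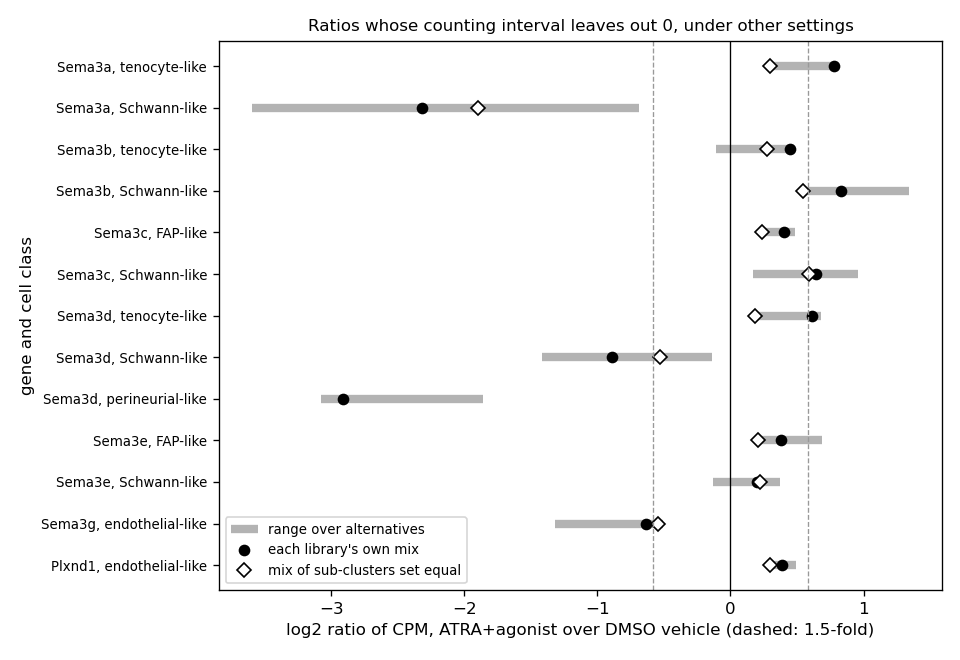
Log2 ratios (horizontal axis) of the 13 pairs of gene and class whose counting interval left out 0 (rows), as measured (black), with the mix of sub-clusters set equal (white diamonds) and over the range of the alternative settings (gray bars), with 1.5-fold dashed. Sema3a in tenocyte-like cells moves from 0.78 to 0.30 with the equal mix, and Sema3a in Schwann-like cells ranges from -3.60 to -0.68.

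The other genes of the pathway were taken as a list of 47, from receptors to intracellular effectors. Of 310 pairs of gene and class that could be compared, from 46 genes, 19 (6.13%) were called higher and 29 (9.35%) lower in ATRA+agonist, with a median log2 ratio of 0.03, beside 5.14% and 6.54% over all genes. In B cell-like cells, where no member could be compared, 6.97% of all genes were called higher and 10.1% lower, and in T or NK cell-like cells 5.97% and 7.09%. The perineurial-like class, whose markers and depth differed between the libraries as given above, held 1 of the higher and 8 of the lower calls. Without it 18 of 294 pairs (6.12%) were higher and 21 (7.14%) lower. Ratios with an equal mix of sub-clusters are given for the members only. The part of the mix in the pathway calls below was not tested.

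Both co-receptors were expressed in endothelial-like cells and in several other classes. Nrp1, the Sema3a co-receptor, had 1266 and 1094 CPM in endothelial-like cells and 520 and 476 CPM in pericyte-like cells, followed by FAP-like cells (204 and 226 CPM). It was called higher in Schwann-like cells (log2 ratio 0.72, 0.19 to 1.24) and lower in muscle stem cell-like cells (-0.63, -1.05 to -0.21). Nrp2, the Sema3f co-receptor, had 283 and 238 CPM in endothelial-like, 180 and 234 CPM in monocyte or macrophage-like and 132 and 97.3 CPM in Schwann-like cells. It was called higher in B cell-like cells (1.32, from 135 and 5 UMIs) and lower in perineurial-like cells (-1.94).

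The 4 class A plexins, the signaling partners of neuropilins, gave 6 calls higher and 1 lower in 22 pairs. Over all genes 5.14% of pairs were called higher and 6.54% lower. Plxna4 stood at 193 CPM [163 to 226] and 90.7 CPM [77.9 to 105] in Schwann-like cells, a log2 ratio of 1.09 (0.76 to 1.41), and was also called higher in FAP-like (0.72) and mast cell-like cells (2.51, from 18 and 2 UMIs). Plxna1 was called higher in FAP-like cells, at 30.9 CPM [28.0 to 34.1] and 18.7 CPM [16.4 to 21.2] (0.73, 0.49 to 0.96), and in muscle stem cell-like cells (1.07, from 32 and 18 UMIs). Plxna2 had 414 and 543 CPM in endothelial-like and 210 and 221 CPM in muscle stem cell-like cells, with a call higher in tenocyte-like cells (0.80, from 25 and 35 UMIs) and lower in perineurial-like cells (-2.09). Plxna3 was at most 6.71 CPM in any compared class and gave no call in 2 pairs.

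**Figure D5:**
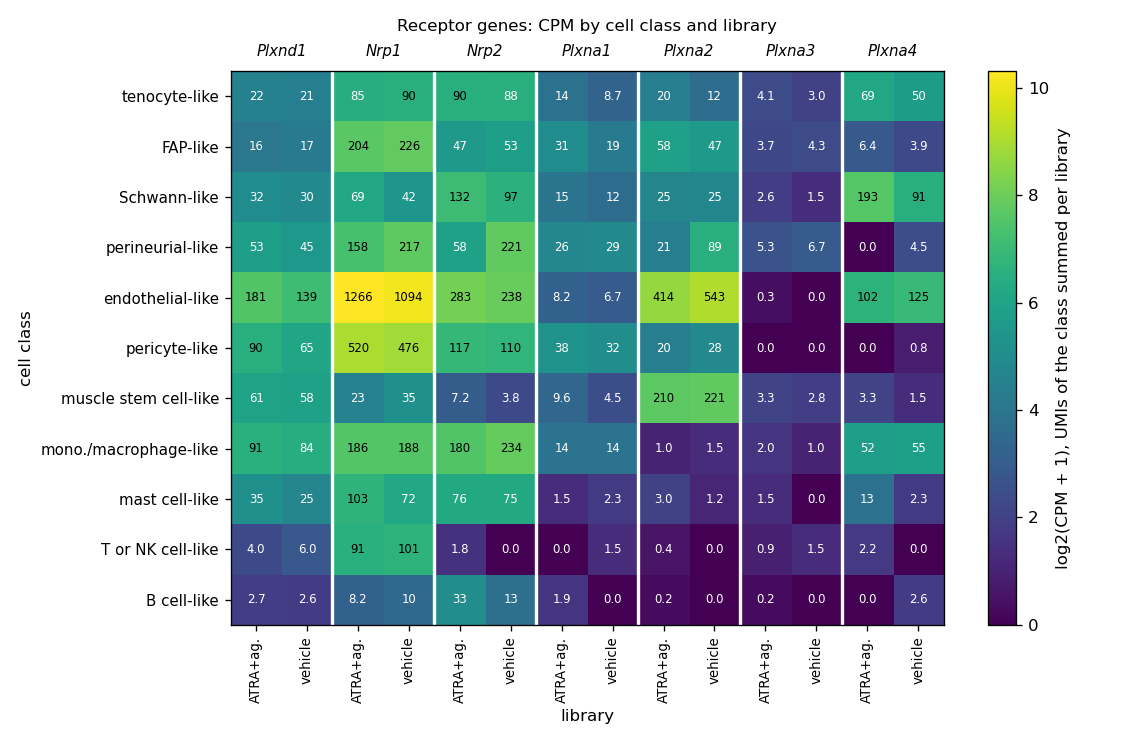
Heat map of Plxnd1, the neuropilins and the class A plexins (columns, in pairs for ATRA+agonist and vehicle) in the 11 compared classes (rows), colored by log2(CPM + 1) with the CPM printed in each cell. Nrp1 in endothelial-like cells is brightest (1266 and 1094 CPM), and Plxna4 in Schwann-like cells is 193 and 90.7 CPM.

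Among the 13 transmembrane or anchored semaphorins, 4 pairs were called higher and 12 lower of 72, beside 5.14% and 6.54% over all genes. Sema4a, an immune and vascular semaphorin, gave 7 of the lower calls in 10 classes. Its level was 28.0 CPM [24.1 to 32.2] and 55.9 CPM [50.8 to 61.3] in endothelial-like cells (interval of the log2 ratio -1.25 to -0.75), 21.2 CPM [13.8 to 31.0] and 82.1 CPM [72.1 to 93.0] in tenocyte-like cells (-1.95), and 9.23 CPM [3.71 to 19.0] and 81.1 CPM [69.0 to 94.7] in Schwann-like cells (-3.13). It was also called lower in muscle stem cell-like (31.1 and 62.4 CPM), monocyte or macrophage-like (-0.63), T or NK cell-like (-1.14) and perineurial-like cells, the last with 0 against 24 UMIs. Sema5a was called lower in Schwann-like (-1.16) and tenocyte-like cells (-0.87) and higher in B cell-like cells (1.02). Sema6a, a ligand of class A plexins, was called higher in tenocyte-like (0.75) and lower in perineurial-like cells (-2.65).

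The remaining roles gave fewer calls for their number of pairs. Of 20 pairs of other plexins 3 were called lower, which were Plxnc1 in T or NK cell-like (-0.67) and perineurial-like cells (-1.53) and Plxnb2 in mast cell-like cells (-1.04). Receptor partners gave 1 call higher in 15 pairs, Nrcam in tenocyte-like cells (1.53, from 13 and 11 UMIs). Among 32 pairs of convertases Pcsk6 was called higher in endothelial-like cells (1.08) and Pcsk5 lower in perineurial-like cells (-1.77). In 128 pairs of effectors 5 were called higher and 10 lower, beside 5.14% and 6.54% over all genes. Dpysl3, a collapsin response mediator that acts after Sema3a, was higher in endothelial-like (0.86) and perineurial-like cells (0.94) and lower in Schwann-like (-0.94) and pericyte-like cells (-2.53). Mical2, an actin oxidase, was lower in muscle stem cell-like (-0.89), pericyte-like (-0.62) and perineurial-like cells (-4.09), and Gipc1, an adaptor that binds the tail of plexin D1, was higher in pericyte-like (0.88) and muscle stem cell-like cells (0.89).

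Genes whose level followed a member most closely were found by Pearson r of log2(CPM + 10) over 22 units (11 classes in 2 libraries) among 11252 genes. These units share libraries and depth, and the r values describe the pattern over cell classes. Sema3a was closest to Mkx (0.95), Scx (0.93) and Cd109 (0.91), of which Mkx and Scx are tendon transcription factors, and Sema3b to Matn4 (0.97), Col16a1 (0.95) and Cd59b (0.94). Sema3c was closest to Dclk1 (0.98), Ahnak2 (0.94) and Sdk1 (0.94), and Sema3d to Gria4 (0.95), Ntng1 (0.95) and Nlgn1 (0.93). For Sema3e these were Kcna2 (0.98), Rasgef1c (0.97) and the Schwann marker Cdh19 (0.97), for Sema3f Aqp1 (0.93), Hyal2 (0.92) and Fzd6 (0.91), and for Sema3g Slc1a1 (0.98), 9630028H03Rik (0.98) and C1qtnf9 (0.97). Plxnd1 had no gene as close, with Dusp3 (0.85), Ndufc2 (0.84) and Fnbp1l (0.84).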

How the data were processed

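Single-cell 3′ gene expression was measured in 2 libraries, 1 per group, each of pooled cells of 2 mice. The deposited files hold counts: the authors aligned reads and counted UMIs per gene and barcode with Cell Ranger 7.2.0 (version per the file headers) on mm10, the GRCm38 build (per the submitters' processing notes), and no normalization had been applied. Both files were read as raw counts.

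Cells were kept with at least 300 and at most 5000 genes, under 20% mitochondrial and under 0.25% hemoglobin beta UMIs. The 7.5% of cells with the highest doublet score were left out. Counts were scaled to 10000 per cell, 2000 variable genes and 30 principal components were used, and 20 neighbors were clustered at resolution 0.8 (sub-clusters at 0.4). The 55 genes of interest (8 members and 47 pathway genes) were left out of clustering. A cluster was called X-like when at least 3 listed markers stood 2-fold above the other cells. It stayed unnamed if its cells were shallow with none of those markers among its 10 leading genes. The same held if those genes had at least 2 markers of another class, or more of another class than of its own. These names were rebuilt here and may differ from the study's. Class comparisons needed 50 cells per library, and ratios 20 UMIs.

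With 1 library per group no test was possible. UMIs were summed per class and library. Levels have exact Poisson and shares exact Clopper-Pearson 95% intervals, and ratios an exact conditional interval from the 2 counts. A count of 0 allows up to 3 counts. Thinning to 1000 UMIs left out 720 ATRA+agonist and 324 vehicle cells. The members and lists were chosen with earlier results of these data known. The named genes are the 8 members, the neuropilins and class A plexins, up to 3 called genes per other role, and the 3 genes most like each member. The calls were tested on simulated Poisson counts, which is the model that their intervals assume. That simulation does not cover clumping of UMIs in single cells or spread between mice. Alternatives covered the filters, doublet removal, resolution, scaling, naming, thresholds, sub-cluster mix and leaving out perineurial-like cells, the last 2 added after the data were seen. Tools were Python 3.11.15, numpy 2.4.6, scipy 1.17.1, pandas 2.3.3, scikit-learn 1.9.0, igraph 0.11.9 and matplotlib 3.10.9.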

Additional observations from a re-analysis of the deposited data

Results flagged for a closer look

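Sema3a differed between cell classes in opposite directions. Its log2 ratio, ATRA+agonist over vehicle, was 0.78 in tenocyte-like cells and -2.32 in Schwann-like cells. Sema3d did the same, with 0.61 in tenocyte-like cells, -0.89 in Schwann-like cells and -2.91 in perineurial-like cells. With an equal mix of sub-clusters Sema3a stood at 0.30 in tenocyte-like and -1.90 in Schwann-like cells. Sema3d then stood at 0.18 and -0.53, so of these 4 values only Sema3a in Schwann-like cells stayed past 1.5-fold. That ratio rested on 7 ATRA+agonist UMIs, and the perineurial-like one on few as well. With 1 library per group the difference between classes was not tested.

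Sema3c was also present outside the compared classes. Cluster 21, which had no set of enriched markers and stayed unnamed, held 135 Sema3c UMIs in 67 ATRA+agonist cells, a level of 656 CPM [550 to 776], and 86 UMIs in 110 vehicle cells, 291 CPM [232 to 359]. Its leading genes included Cdh9, Nova1 and Sdk1.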

How the results depend on the processing

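Of 476 values of the 34 member log2 ratios under other settings, 434 stayed within the counting interval of the reported value, 42 lay outside it and no called ratio changed sign. Member calls higher numbered 4 as reported, 7 with at least 500 genes per cell, 8 with no upper limit on genes, 2 after thinning and 0 at a 2-fold limit. Member calls lower numbered 4, and 2 with no doublet removal, 1 after thinning and 2 at a 2-fold limit. Pathway calls higher numbered 19, and 8 after thinning and 9 at a 2-fold limit. Pathway calls lower numbered 29, and 11 after thinning, 16 at a 2-fold limit, 19 with the listed genes kept for clustering, 18 with no hemoglobin filter, 19 at resolution 0.4 and 17 under 10% mitochondrial UMIs. A 2-fold limit by construction calls fewer pairs, and thinning leaves fewer UMIs. The filter, doublet and clustering settings also changed which classes were compared, and perineurial-like cells dropped out in several of them. Beyond that the cause was not tested. Setting the mix of sub-clusters equal left 2 of the 7 called pairs with such a value (Sema3a and Sema3c in Schwann-like cells) past 1.5-fold. Some pairs that were not called came past 1.5-fold instead. In endothelial-like cells the log2 ratio of Sema3a went from 0.16 to -0.94 and that of Sema3d from 0.55 to -0.98. In pericyte-like cells that of Plxnd1 went from 0.46 to 0.67. Scaling by the median of ratios shifted log2 ratios by -0.17 (perineurial-like) to 0.13 (B cell-like). No paired analysis was possible because each group had 1 library, and for the same reason no replicate could be left out.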
